A study of Mus musculus with 8 samples.

Results

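Genes were ranked by their brightness in whole testis of 4 mice labelled wild type and aged 27 days, each on 1 Affymetrix mouse expression array, out of 8 arrays in the series. The other 4 arrays, from Brwd1-/- mice of the same age, were not contrasted here. The titles call the 4 ranked samples wild type, while their genotype entry gives Brwd1+/-, so the sources disagree on whether these mice carry a mutant allele of Brwd1, a gene for a bromodomain protein. No treatment was given, and RNA came from the testes of each mouse separately. The members were chosen by title, and 18193 genes were ranked by their mean intensity over the 4 arrays, each gene through its brightest probe set that carries 1 gene symbol. The 300 brightest genes are described in most detail.

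In the seminiferous tubule, spermatogonia divide and enter meiosis, spermatocytes pair and recombine their chromosomes, and the resulting round spermatids elongate into sperm. During elongation histones are replaced first by transition proteins and then by protamines, a tail and an acrosome are built, and many of the mRNAs needed are made early and stored until translation. Sertoli cells support the germ cells inside the tubule, and Leydig cells between the tubules make testosterone. By the study's design text, meiosis has been completed at this age and spermatid development is under way.

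The deposited values are intensities on a linear scale, and every array has a mean of 500 after 2% of probe sets is trimmed at each end. Intensities of different probe sets depend on how well each probe set binds its target, so the order describes brightness on the array and not numbers of transcripts per cell. Array medians were 99.2, 99.3, 112 and 114 for replicates 1 to 4, and the brightest probe sets reached 29764, 30492, 26236 and 22833. Replicates 1 and 2 correlated at a Pearson r of 0.972 over the log2 values of 10915 genes, and replicates 3 and 4 at 0.975. Correlations between the pairs ran from 0.894 to 0.936. These values describe genes within arrays, and genes are not independent replicates. Replicates 1 and 2 therefore stood apart from replicates 3 and 4.

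Of the marker genes, those of spermatids and of late germ cells were brightest and the Leydig marker was dimmest. Tnp1, the transition protein that replaces histones in elongating spermatids, ranked 5 with intensities of 24168, 28220, 26236 and 18653 in replicates 1 to 4 (mean 24319 ± 4124, SD, n = 4). Ldhc, the lactate dehydrogenase subunit of spermatocytes, spermatids and sperm, ranked 6 with 26207, 28891, 22462 and 19634. Prm1, a protamine that packs sperm DNA, ranked 13 with 24464, 26039, 19450 and 14978. All 3 genes were in the top 30 of both pairs of replicates. Sycp3, part of the axis of meiotic chromosomes, ranked 1016 with 3572, 3889, 5021 and 5525. Star, which brings cholesterol into the mitochondria of Leydig cells, ranked 6635 with 796, 803, 445 and 504. Brwd1 itself ranked 8972, near the median gene at rank 9096, with 226, 207, 396 and 528. The curve of intensity against rank shows these 6 genes.

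**Figure D1:**
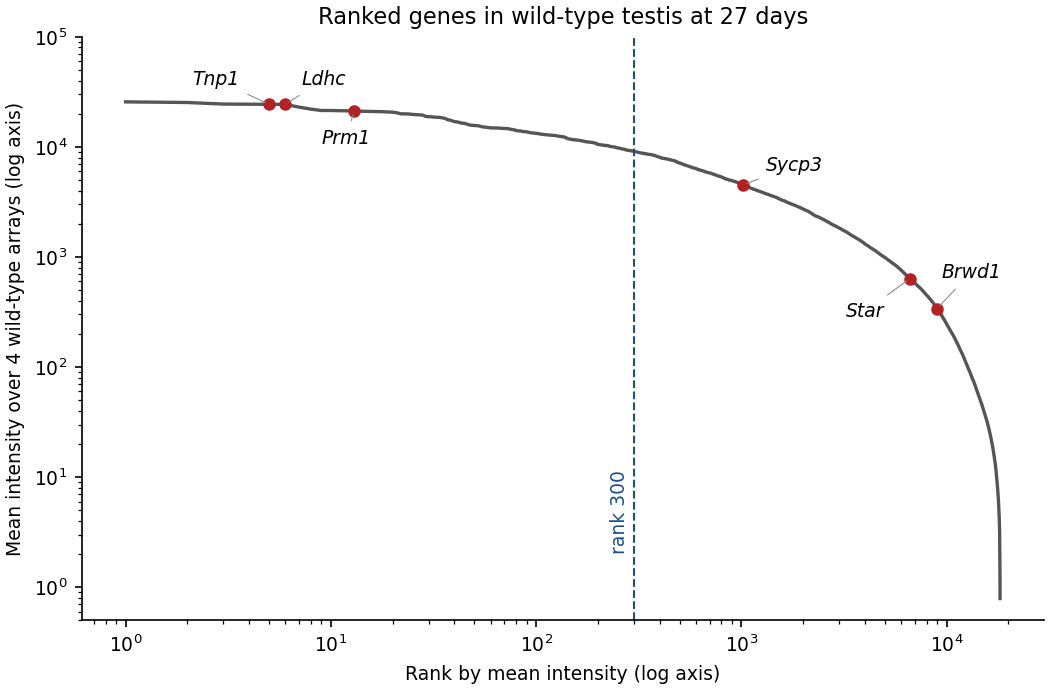
Mean intensity over the 4 wild-type arrays (vertical, log axis) against rank (horizontal, log axis) for 18193 genes, with the marker genes and Brwd1 as points and a dashed line at rank 300. Tnp1, Ldhc and Prm1 sit at ranks 5, 6 and 13, left of the line, while Sycp3, Star and Brwd1 sit at 1016, 6635 and 8972.

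On log axes the curve of intensity fell slowly over the brightest genes and steeply after them. The mean was 25616 at rank 1, 21378 at rank 10, 13247 at rank 100, 9104 at rank 300, 4566 at rank 1000 and 329 at rank 9096. The top 300 genes held 19.2% of the summed intensity of all ranked genes, and the top 1000 held 41.3%. By array the share of the top 300 was 20.4%, 20.7%, 18.7% and 17.0% in replicates 1 to 4. Tmem107 was the last gene inside at rank 300 with a mean of 9104, and Dad1 the first outside at rank 301 with 9101, so the edge of the group falls within the spread between arrays.

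The brightest gene was Slc25a39, a mitochondrial carrier, with 27593, 29263, 25111 and 20499 in replicates 1 to 4. Pabpc1, which binds the poly(A) tails of mRNAs, ranked 2 with 27407, 28319, 24674 and 20712. Tmsb10, which binds actin monomers, ranked 3, and Gstm5, a glutathione transferase, ranked 4. In each of these 4 genes replicate 4 was the dimmest array. The rest of the top 30 mixed germ cell genes with genes of every cell. Phf7 at rank 12, a male germline chromatin reader, and Slc2a3 at rank 14, a glucose transporter, stood beside Ppp1cc, a protein phosphatase needed for sperm formation, at rank 9. Clu, made in Sertoli cells, ranked 11, and Rsph1, a part of the radial spokes of the sperm tail, ranked 20. Translation was represented by Eef1a1, Eif5a, Rps29, Rps28, Rpl38, Rpl41 and Rps14, and energy metabolism by Fbp1, Cox7a2 and Cox6b2. Tpt1, Actg1, Ube2d3, Itm2b, Pebp1, Tcp1, Spata4 and Sf1 complete the group.

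**Figure D2:**
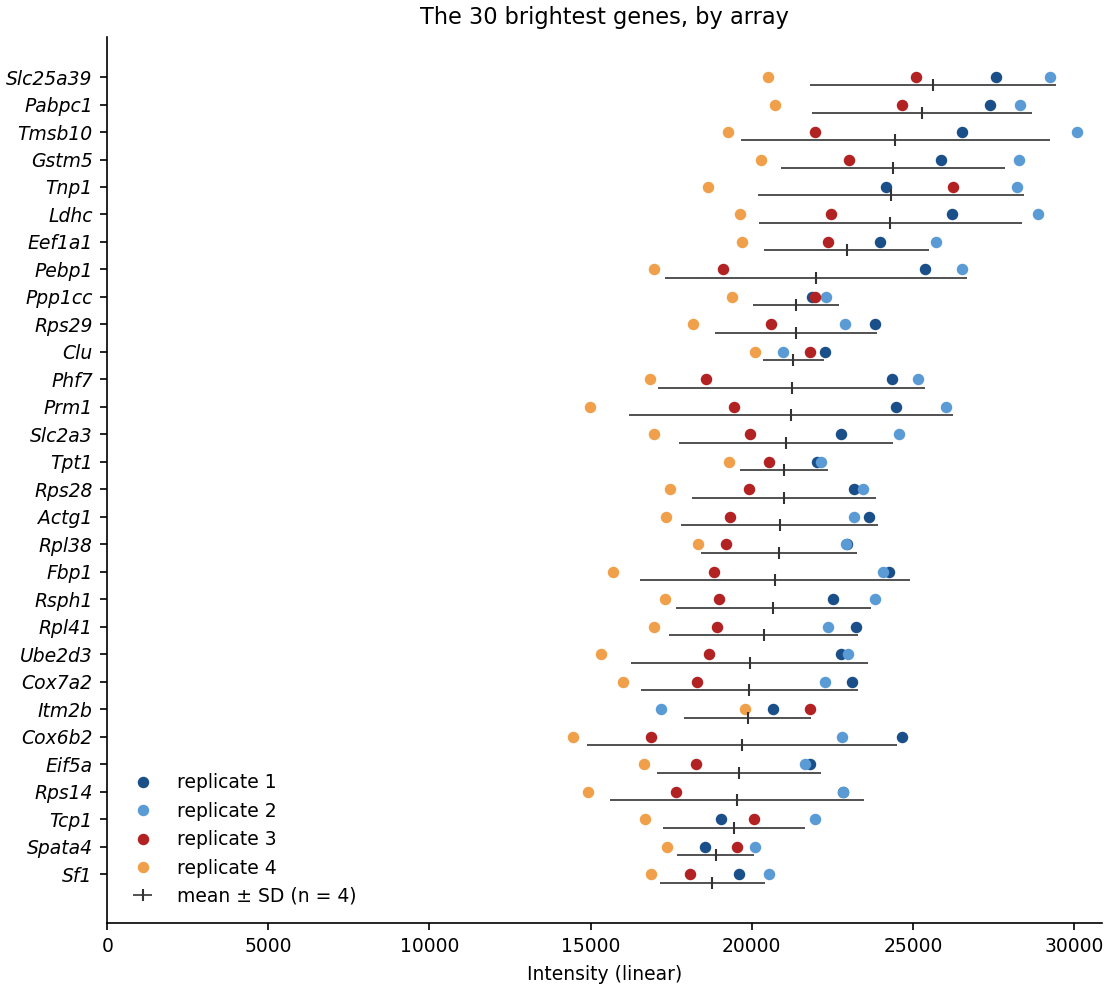
Intensity (horizontal, linear scale from 0) of the 30 brightest genes (rows) in each of the 4 wild-type arrays (points, coloured by replicate), with a bar for the mean ± SD (n = 4). Replicate 4 is the lowest point for most genes, as for Slc25a39 at 20499, while Itm2b is lowest in replicate 2 at 17198.

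The steadiest members of the top 300 varied little between arrays. Cst12, a cystatin, had the smallest coefficient of variation (SD divided by the mean), 2.63%, with 12556, 12132, 12025 and 12697. Psma8, the proteasome subunit of the testis, had 3.42%, Uqcrb of the respiratory chain 3.94%, Ndufv2 of complex I 4.16% and Clu 4.47%. The median over the 300 genes was 14.3%. The most variable was Car3, a carbonic anhydrase of fat and muscle, at 69.1%, followed by the mitochondrial gene ND5 at 39.0%, Gsn at 36.1%, Col3a1 at 30.5% and Gsg1 at 29.4%.

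Chromatin genes of spermatids included some of the brightest of all. The list of these genes had 13 ranked members with a median rank of 747, and 5 of them, Tnp1, Prm1, Prm2, Tnp2 and Hils1, were in the top 300 of both pairs. Prm2 ranked 35 with 19645, 23991, 17627 and 12052, and Tnp2 ranked 115 with 13826, 17275, 11738 and 8418. The lowest member was H3f3b, a replacement histone gene, at rank 13884 with 46.1, 78.5, 87.3 and 48.1. Its only ranked probe set read below the median of each array, so the rank describes that probe set. Probe sets with several symbols were not ranked. Replicate 4 was lowest for Prm1, Prm2, Tnp1 and Tnp2, and the list's summed intensity was 122642, 147649, 118526 and 81104 in replicates 1 to 4.

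Promoter sequences of these genes are shown because many genes of late spermatids are known to be switched on by CREM, a factor that binds the cAMP response element. RefSeq promoters (mouse GRCm38.p6, 250 bases before to 50 after the start) were matched to 243 of the 300 genes and to 14368 of the 18193. The stretches below are the 120 bases before the start, 5′ to 3′ on the gene's strand, with each match to TGANNTCA in capitals. Tnp1 (chr1:73015900-73016019, minus strand) and Prm1 (chr16:10796824-10796943, minus) hold a match, as does Actl7b, an actin-like gene of the acrosome (chr4:56741426-56741545, minus). Prm2 (chr16:10792106-10792225, minus) and Tnp2 (chr16:10788656-10788775, minus) hold none in the window. Rps9, a ribosomal protein gene (chr7:3703921-3704040, plus), holds the exact element TGACGTCA.
Tnp1: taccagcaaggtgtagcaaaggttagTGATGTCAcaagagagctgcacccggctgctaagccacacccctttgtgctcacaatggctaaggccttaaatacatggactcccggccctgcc
Prm1: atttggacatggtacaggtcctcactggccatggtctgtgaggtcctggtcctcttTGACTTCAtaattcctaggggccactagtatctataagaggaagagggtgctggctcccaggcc
Prm2: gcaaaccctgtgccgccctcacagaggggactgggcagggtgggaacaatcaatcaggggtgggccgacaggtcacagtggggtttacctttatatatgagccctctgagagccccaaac
Tnp2: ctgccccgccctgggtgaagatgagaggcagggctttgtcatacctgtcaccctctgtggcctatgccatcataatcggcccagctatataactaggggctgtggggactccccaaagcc
Actl7b: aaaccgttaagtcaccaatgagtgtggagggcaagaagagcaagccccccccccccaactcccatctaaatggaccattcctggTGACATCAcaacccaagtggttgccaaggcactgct
Rps9: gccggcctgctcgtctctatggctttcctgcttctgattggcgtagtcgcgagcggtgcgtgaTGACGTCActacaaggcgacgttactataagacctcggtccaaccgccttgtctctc
The match lies 94 bases before the start in Tnp1, 64 in Prm1, 36 in Actl7b and 57 in Rps9. Over the 300-base promoters, TGANNTCA, which also counts the exact element and reads the same on both strands, was found in 6 of 13 spermatid chromatin genes and 13 of 21 acrosome genes. It was found in 7 of 19 energy isozyme genes, 8 of 34 sperm tail genes and 5 of 42 ribosomal protein genes. Among the top 300 the share was 11.1%, beside 11.3% of all ranked genes with a promoter and 16.8% of those with a GC content under 54%. The exact element was in 2.47% of the top 300 and in 2.69% of all. Spermatid chromatin promoters held a median of 3 CpG pairs, against 22 in the top 300 and 17 over all genes. A match describes the letters only, and no binding was measured.

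Genes for energy use in germ cells were bright as a group. Of 24 ranked isozymes and transporters, 16 were in the top 1000 and 8 in the top 300 of both pairs, with a median rank of 650.5. Ldhc and Slc2a3 led, followed by Cox6b2, a cytochrome oxidase subunit of the testis, at rank 25 and Ldhal6b at rank 66. Aldoart1, an aldolase retrogene, was the lowest at rank 7109 with 622, 679, 608 and 342. The broader respiratory chain list of 89 genes had a median rank of 708 and 21 members in the top 300, from Cox7a2 at rank 23 to Ndufb4 at rank 15611.

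Tail and acrosome genes spread over the upper ranks. The tail list of 39 genes had a median rank of 1327 and 8 members in the top 300, led by Rsph1, Ropn1l of the radial spoke at rank 33, the dynein heavy chain Dnah8 at 49 and Meig1 at 81. Dnah17, another dynein heavy chain, was listed last at 16287. The acrosome list of 25 had a median rank of 1357, with Tcp11 at 169, Actl7b at 214, the sperm surface protein Adam2 at 380 and Spesp1 at 412. Its lowest member was Actrt1 at 10144.

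Meiotic genes came lower. The 27 genes of meiotic prophase had a median rank of 5209 (6526 in replicates 1 and 2, 4581 in replicates 3 and 4), and 4 were in the top 1000. Syce1, of the central element of the synaptonemal complex, ranked 243 with 9034, 10453, 10540 and 9667, and was in the top 300 of replicates 3 and 4 only. Syce2 ranked 595, the cohesin subunit Stag3 903 and Mns1 956, while Mei4, needed for meiotic DNA breaks, ranked 15109. The 19 genes of pachytene and the divisions had a median rank of 2573 (2149 and 3025 in the same pairs), led by the chaperone Hspa2 at 57 and Mael, of the piRNA pathway, at 131. Clgn ranked 445 and Ccnb2 653, and the linker histone gene H1f6 lay at 14332. The only ranked probe set of H1f6 read 86.7, 39.1, 48.6 and 44.5, below the array medians, so its rank describes that probe set.

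Spermatogonial genes were dim. The 20 ranked members had a median rank of 9299.5 (9805.5 in replicates 1 and 2, 8987.5 in replicates 3 and 4), and 11 lay below the median gene. Id4, of the stem cell pool, was the brightest at rank 921 with 6099, 6160, 3713 and 3437. Uchl1 ranked 3657, Dmrt1 4105 and Ccnd2 4626, and Lhx1 ranked 16383 with 6.32, 9.23, 44.7 and 33.3. In whole testis, fewer cells of a type and less RNA per cell cannot be told apart.

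Housekeeping lists framed the ranking. Ribosomal proteins had the lowest median rank of the 21 lists drawn, 197.5 over 48 genes, with 27 in the top 300. Rps16 lay at 18162 with 1.99, 1.07, 2.77 and 3.39, far below the array medians. That rank describes its brightest probe set with 1 symbol, and probe sets with several symbols were not ranked. Chaperones had a median rank of 368 over 27 genes, led by Tcp1, of the CCT folding complex, at 28, Hspa2, Hspa5 at 70 and Cct7 at 72, with Dnajb7 last at 5574. Genes for storing and translating mRNA had a median of 972.5 over 30 genes, with Pabpc1, Eef1a1, Tpt1 and Eif5a in front and Cpeb1 last at 8374. The list of ubiquitin and proteasome genes, which leaves out Ube2d3 and other bright genes of that kind, had 1384 over 25 genes, with Psmb7 at 103, Psmb4 at 207, Psma8 at 298, Psma6 at 389 and Ubqlnl last at 8238. Tubulins and actins had 6361 over 23 genes, from Actg1 at 17, Tubb4b at 42, Actb at 171 and Acta2 at 345 down to Tuba3b at 15217.

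Somatic cells were visible at every level. Of 25 Sertoli genes, 5 were in the top 300, Clu at 11, the receptor gene Amhr2 at 124, Cst12 at 134 and the protease Ctsl at 190 among them, and the median rank was 3873. Gdnf, the growth factor for spermatogonial stem cells, was last at 15934. Leydig genes had a median rank of 2430 over 13 members, with Cyp17a1 at 312, Fdx1 at 420, Ephx1 at 1107 and Cyp11a1 at 1262, all parts of steroid synthesis except Ephx1, an epoxide hydrolase. Sult1e1 was last at 12172. Peritubular and stromal genes had a median rank of 2795 over 15, with Col3a1 at 274, Acta2 at 345, Col1a2 at 370 and Myl9 at 812, and Lmod1 last at 15126. Col3a1 ranked 487 in replicates 1 and 2 and 139 in replicates 3 and 4, and Col1a2 577 and 194.

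Other cell types were dimmer. The 19 macrophage genes had a median rank of 7728, led by Aif1 at 1817, Fcgr3 at 2039, Csf1r at 2825 and Lyz2 at 3060, with Cd163 last at 13610. The 17 endothelial genes had 10864, led by Sox17 at 5668, Cldn5 at 7351, Esam at 8101 and Sox18 at 8478, with Tie1 last at 14033. The 4 blood genes ranked from Alas2 at 7900 and Hba-a2 at 11288 to Slc4a1 at 14495 and Hba-a1 at 17842.

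**Figure D3:**
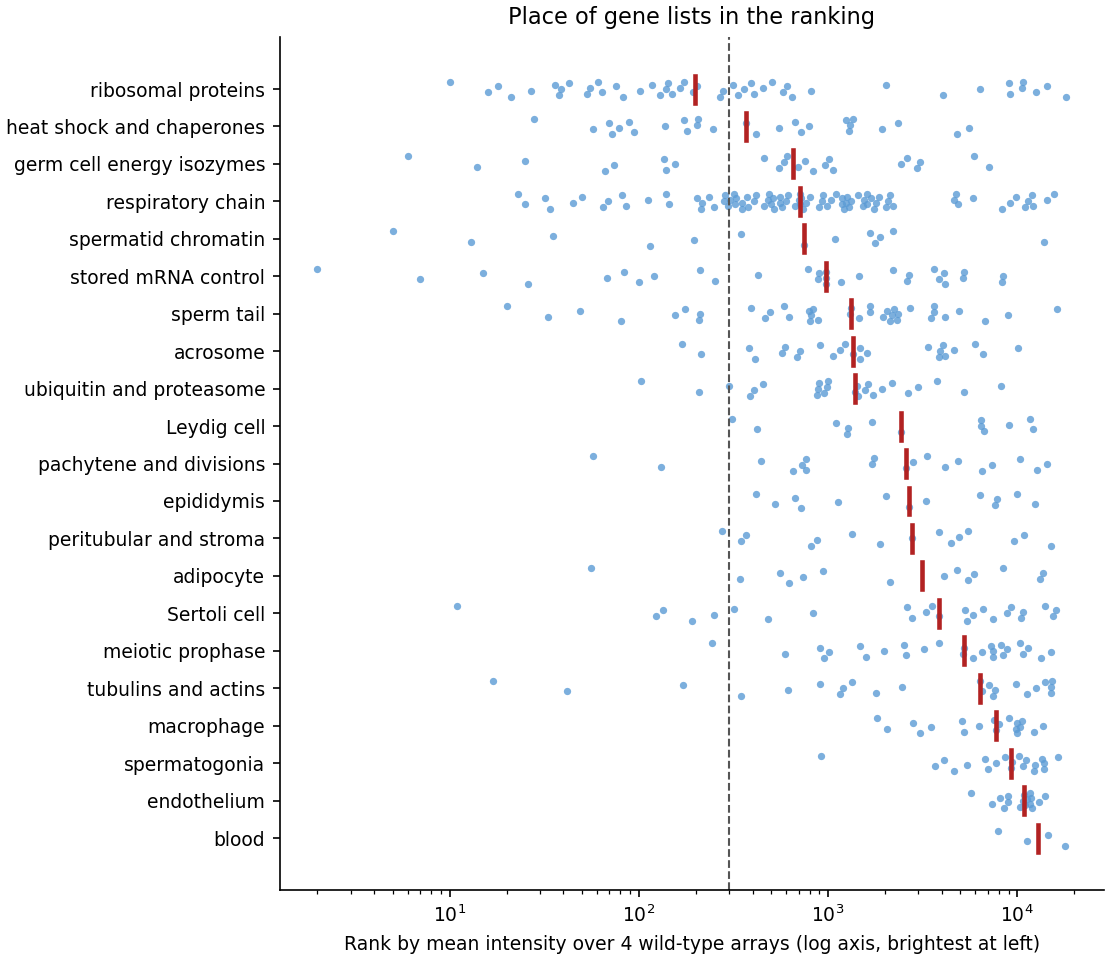
Rank of each member (points, log axis, brightest at left) of 21 gene lists (rows), with the list's median as a red bar and a dashed line at rank 300. Medians run from 197.5 for ribosomal proteins to 12891.5 for blood, with spermatid chromatin at 747, meiotic prophase at 5209 and spermatogonia at 9299.5.

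Most of the top 300 held in both pairs of replicates. Of the 300 genes, 270 were also in the top 300 of replicates 1 and 2, 262 in that of replicates 3 and 4, and 232 (77.3%) in both. No gene was in neither, 38 were only in that of replicates 1 and 2 and 30 only in that of replicates 3 and 4. All 300 were within rank 600 of both pairs, and 203 were in the top 300 of each of the 4 arrays. Of the top 30 genes, 24 were in the top 30 of both pairs, and of the top 1000, 852 were in the top 1000 of both.

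Genes that did not hold went further from the top in one direction than in the other. Over all ranked genes, 68 were in the top 300 of replicates 3 and 4 only, and 15 of them lay beyond rank 1000 in replicates 1 and 2. Another 68 were in the top 300 of replicates 1 and 2 only, and none of them lay beyond rank 702 in replicates 3 and 4. The 10 that came furthest up in replicates 3 and 4 were Lcn5, Lcn8, Gpx5, Cyp2e1, Defb42, Adipoq, Lpl, Fabp4, Crip1 and Cuzd1. The 10 that went furthest down were H2ac19, Mzt2, Dnpep, Syngr4, Lrrc46, Jpt1, Ankrd54, Ddx39a, Dkkl1 and Dbil5.

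**Figure D4:**
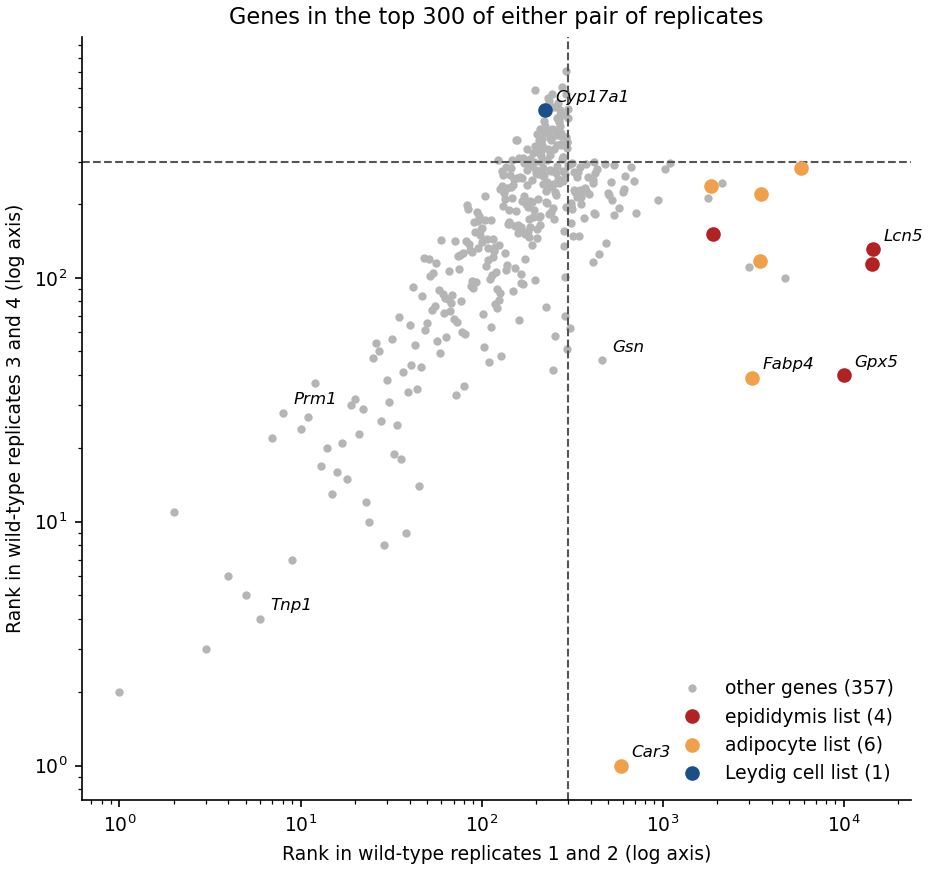
Rank in replicates 1 and 2 (horizontal, log axis) against rank in replicates 3 and 4 (vertical, log axis) for every gene in the top 300 of either pair, coloured by gene list, with dashed lines at rank 300. Points of the epididymis and adipocyte lists lie right of the vertical line, as Lcn5 at 14592 against 131 and Car3 at 590 against 1, and the Leydig gene Cyp17a1 lies above the horizontal line at 225 against 486.

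Epididymal genes were among those that entered. Lcn5, a lipocalin secreted by the epididymis, read 43.1 and 49.1 in replicates 1 and 2, and 12113 and 10638 in replicates 3 and 4. Lcn8 of the same family read 22.6, 81.8, 11497 and 12114, and Gpx5, the epididymal glutathione peroxidase, 59.7, 389, 16669 and 14306. For these 3 genes both arrays of one pair lay above both of the other. These genes were chosen for this difference, so it is given with no test. Rnase10, another epididymal secreted protein, read 29.0, 48.9, 7954 and 8692, and Spink8 5518, 280, 10808 and 11022, with replicate 1 also high. For all 13 ranked members of the list both arrays of replicates 3 and 4 lay above both of replicates 1 and 2, beside 29.9% of all ranked genes. The list had a median rank of 1105 in replicates 3 and 4, against 14592 in the other pair. Its summed intensity was 6141, 1134, 73463 and 75218, and the lowest member was Ros1 at rank 12424.

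Fat cell genes were also brighter in replicates 3 and 4. Fabp4, the fatty acid carrier of adipocytes, read 415, 3118, 14554 and 16484. Adipoq, the hormone adiponectin, read 683, 2399, 9119 and 10268, and Lpl, lipoprotein lipase, 318, 2827, 10586 and 12817. Replicate 2 lay above replicate 1 in each. The adipocyte list was drawn up after Car3, Fabp4, Lpl and Adipoq had been seen among these genes, so it is described with no test. For 13 of its 14 ranked members both arrays of replicates 3 and 4 lay above both of the others, beside 29.9% of ranked genes. The 14 include the genes that prompted the list. Its median rank was 6966.5 in replicates 1 and 2 and 1690.5 in replicates 3 and 4. Car3, with 2119, 11300, 24374 and 22833, was the brightest gene of replicates 3 and 4 and ranked 590 in replicates 1 and 2. Scd1 read 1153, 4757, 6093 and 12709, and Lep was the lowest member at rank 13674. The list's summed intensity was 6156, 28709, 83277 and 98391.

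Most Leydig genes were dimmer in replicates 3 and 4. The pairs were compared with limma on log2 of intensity plus 16, with Benjamini-Hochberg adjustment over 10916 genes above a minimum mean intensity, and differences are replicates 3 and 4 minus 1 and 2 with their SE. Cyp11a1, the enzyme that starts steroid synthesis, read 5513, 4804, 2671 and 2508 (-0.99 ± 0.14, adjusted p = 0.0159), and Cyp17a1 10614, 11318, 7365 and 6549 (-0.66 ± 0.12, adjusted p = 0.0316). Replicates 1 and 2 lay above replicates 3 and 4 for both genes. Of 11 tested members 6 were called lower (Cyp17a1, Fdx1, Ephx1, Cyp11a1, Nr5a1 and Star) and none higher, with a median of -0.66. Over all genes tested 6.03% were called higher and 2.48% lower, with a median of -0.02. Of these calls, 147 of 658 higher and 10 of 271 lower came from genes that would not pass the filter in both pairs. Of the 13 ranked members, 9 lay lower in both arrays of replicates 3 and 4 than in both of the others, and 3 lay higher. Over all ranked genes the shares were 26.9% and 29.9%. The list's summed intensity was 44079, 42533, 30566 and 29414. With quantile normalization 4 Leydig genes were called lower and with median centring 7, and without replicate 1 none of the 6 was called. Of 22 Sertoli genes 4 were called lower (Amhr2, Defb19, Inha and Serpina5) and Kitl higher, and none was called with quantile normalization. Of 14 peritubular and stromal genes 3 were called higher, Dcn, Col1a1 and Lum. Without replicate 1 the named Sertoli genes, Col1a1 and Lum were not called, and Dcn was.

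Of the meiotic prophase genes, 4 of 24 were called higher and 1 lower, beside 6.03% and 2.48% of all genes tested. Tex15, needed for meiotic recombination, read 208, 286, 1424 and 1836 (2.65 ± 0.22, adjusted p = 0.00192), and the meiotic cohesin gene Smc1b 340, 695, 1877 and 2658 (2.16 ± 0.33, adjusted p = 0.0216). Sycp2, of the chromosome axis, read 946, 1312, 3148 and 5650, and Sycp1, of the transverse filament, 979, 964, 2137 and 4393, and both were called higher. Syce3 was called lower with 4374, 4077, 2935 and 2457. With quantile normalization 6 were called higher and Syce3 was not called, beside 367 called higher of all 10916 genes. With median centring 4 were called higher and 2 lower, beside 605 and 1566 of 10916. Sycp3 missed the threshold (0.50 ± 0.13, adjusted p = 0.0593). Of 13 tested spermatogonial genes, Id4 was called lower. Gfra1, the receptor for Gdnf, read 148, 127, 602 and 636, and it passed the filter on intensity only through replicates 3 and 4, so its call is not counted. Brwd1 was called higher at 1.03 ± 0.22 (adjusted p = 0.0406) through its brightest probe set. Its next brightest set read 197, 229, 403 and 510, while the one after that read 304, 222, 306 and 329. A dimmer set read 95.7, 118, 166 and 132. Without replicate 1 Sycp1, Sycp2, Syce3, Id4 and Brwd1 lost their calls, with differences of 1.65, 1.67, -0.60, -0.78 and 1.09. Tex15 ran from 2.44 to 2.87 and Smc1b from 1.66 to 2.66 over the alternatives, and both kept their calls.

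**Figure D5:**
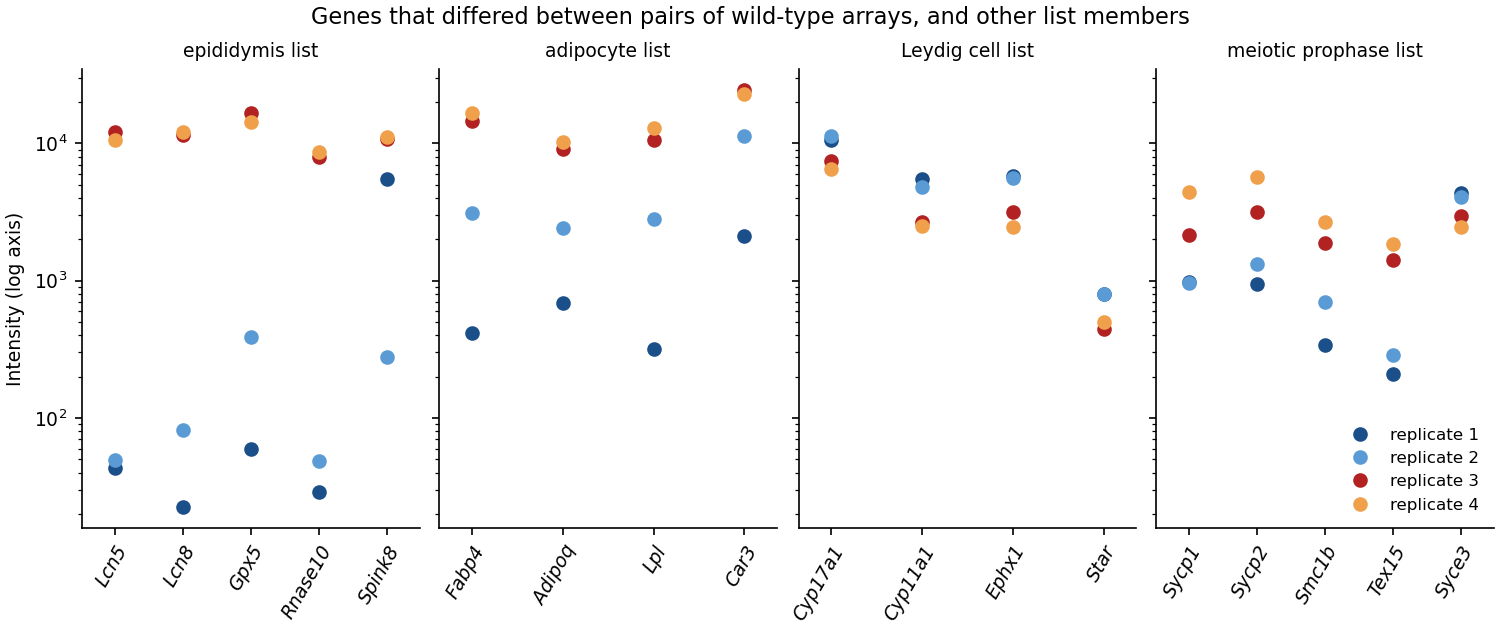
Intensity (vertical, log axis) in each of the 4 wild-type arrays (points, coloured by replicate) of genes from 4 lists (panels). Lcn5 lies at 43.1 and 49.1 in replicates 1 and 2 against 12113 and 10638 in replicates 3 and 4, and Cyp11a1 at 5513 and 4804 against 2671 and 2508.

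The calls in spermatid and housekeeping lists were mostly lower in replicates 3 and 4, and their number depended on the scaling. By limma none of 12 tested spermatid chromatin genes was called. At an unadjusted p under 0.05 there were 4, beside 3615 of all 10916 genes tested. All 12 had negative differences with a median of -0.46, beside 5617 negative of 10916 genes and 258 of the top 300. With quantile normalization 11 of 12 were negative, beside 6057 of 10916. With median centring 3 were called lower, beside 1566 of 10916. Prm1 came closest (-0.56 ± 0.14, adjusted p = 0.0516), and Prm2 and Tnp2 differed by -0.57 ± 0.19 and -0.64 ± 0.18. In the acrosome list Acrbp and Prss21 of 25 were called lower, and in the tail list of 38 Ropn1l was called lower and Cfap43 higher. Among all genes tested 2.48% were called lower and 6.03% higher. With median centring 5 acrosome and 6 tail genes were called lower, and with quantile normalization none of either.

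Respiratory chain genes had 2 higher and 10 lower calls of 83, beside 2.48% of all genes called lower, with 36 lower under median centring and 1 under quantile normalization. Energy isozymes had 3 lower calls of 24, Cox6b2, Pgam2 and Cox8c, with 9 under median centring and none under quantile normalization. Ribosomal proteins had 2 higher and 3 lower calls of 45, with 19 lower under median centring and 1 under quantile normalization. Tubulins and actins had 2 lower calls of 17, Tubb4b and Actl9, with 7 and none under those scalings. Chaperones had 1 lower call of 27, Dnajb1, with 7 and 1, and genes for storing and translating mRNA 1 higher and 2 lower of 30, with 10 lower and none. The pachytene, macrophage and proteasome lists had no call by limma, and none with quantile normalization. At an unadjusted p under 0.05 they had 7 of 17, 5 of 17 and 6 of 25 genes, beside 3615 of 10916 tested. With median centring 6, 4 and 3 of their genes were called lower, beside 1566 of 10916. The 1 tested blood gene was not called. Of 9 tested endothelial genes Plvap passed the filter only through replicates 3 and 4, so its call is not counted, and none of the other 8 was called (2 of 9 at an unadjusted p under 0.05). Without replicate 1 the genes named in these lists lost their calls. The differences were then -0.55 (Cox6b2), -0.51 (Pgam2), -0.59 (Cox8c), -0.54 (Tubb4b), -0.93 (Actl9) and -0.65 (Dnajb1).

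Among the top 300 themselves, 3 genes were called higher in replicates 3 and 4 and 44 lower, with a median of -0.30. Of all 10916 genes tested 658 were called higher and 271 lower, with a median of -0.02. Gsn, which severs actin filaments, read 7814, 7981, 15098 and 15047 (0.93 ± 0.10, adjusted p = 0.0068), and Rps3a1 and Tmsb4x were the other two. The largest lower calls with full gene names were Dnajb1 (-0.68 ± 0.13), Chrac1 (-0.67 ± 0.11), Lrwd1 (-0.61 ± 0.14) and Cox6b2 (-0.60 ± 0.11). Gsn kept its call and ran from 0.74 to 1.15 over the alternatives. The other genes named here lost their calls without replicate 1 and without replicate 2. Without replicate 1 their differences were -0.65 (Dnajb1), -0.62 (Chrac1), -0.57 (Lrwd1), -0.55 (Cox6b2), 0.47 (Rps3a1) and 0.54 (Tmsb4x). Both arrays of replicates 3 and 4 lay below both of replicates 1 and 2 for 216 of the 300 and above for 18, against 26.9% below and 29.9% above over all ranked genes. These directions depend on scaling. With quantile normalization 7 of the 300 were called higher and 8 lower, beside 367 and 131 of 10916 genes tested. With each array centred on its median the median over all genes tested moved from -0.02 to -0.20. Of the calls, 27.9% were then higher in replicates 3 and 4, not 70.8%. The 70.8% includes 147 of 658 higher calls from genes that would not pass the filter in both pairs. Leaving out 1 array changed the count for the top 300 from 47 to 2 without replicate 1, 4 without replicate 2 and 184 without replicate 3.

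Measures of RNA and of the controls also differed between the pairs. The ratio of the 3′ to the 5′ probe set was 1.41, 1.45, 1.82 and 2.30 for actin and 0.549, 0.574, 0.629 and 0.762 for Gapdh in replicates 1 to 4. All 27 poly(A) control probe sets and all 18 hybridization control probe sets read lower in replicates 3 and 4, by a median of -3.12 and -0.68 on the log2 scale. Their part in the differences between the pairs was not tested.

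The place of a gene depended on which probe set carried it. Of the top 300, 191 had several probe sets, and in 110 the dimmest read more than 10-fold below the brightest. The other probe set of Tnp1 read 344, which would place it at 8932, while Ldhc's other set read 22540. Probe sets ending in _x_at, which can bind related transcripts, carried 48 of the 300 genes and 3.26% of all genes. With such probe sets and those ending in _s_at left out, 242 of the 300 genes stayed in the top 300, and with the mean of all probe sets 205 did. A further 98 probe sets with several symbols and 36 with none were as bright as rank 300 and were not ranked.

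Genes of the X chromosome were rare at the top. Of 617 ranked X-linked genes 2 were in the top 300 (0.324%), Tmsb4x and Tsga8, against 1.66% over all chromosomes. Chromosome 11 gave the most, 34 of 1443, and chromosome 17 the largest share of any nuclear chromosome, 2.52%.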

How the data were processed

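Testis RNA of each of the 4 mice titled wild type was hybridized to its own Affymetrix array. The authors deposited intensity values, not log-transformed, that the submitters' processing notes credit to GCOS. No version of GCOS is named. The 2% trimmed mean of every deposited column is 500, which was checked. Every value column was mapped to a sample. Of 45101 probe sets, 64 controls were left out, 34945 had 1 gene symbol, 932 several and 9160 none. Symbols of 34741 probe sets were updated through RefSeq (GRCm38.p6). Each gene took its brightest probe set over the 4 arrays. The members, the lists and the pairs of replicates were chosen with earlier results of these data known.

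Replicates 3 and 4 were compared with 1 and 2 by limma 3.58.1 (lmFit, eBayes with trend, two-sided) on log2 of the deposited intensity plus 16, over genes above the 40th percentile of mean intensity, with Benjamini-Hochberg adjustment at 0.05. The steps were tested on simulated data. The named genes are the 30 brightest, the markers and Brwd1, the 4 brightest and the lowest member of each list, the genes furthest from holding in both pairs, those with the smallest and largest variation, and the largest called differences. Genes that passed the filter only through the pair where they were high are given without their call. Such calls stay in the counts over all genes tested and in the count of named genes called. Other called list members were named after their values were seen. Alternatives covered the pseudocount, the filter, the scaling, the probe set, the trend, all 8 arrays and leaving out each array. The number of arrays limits the precision.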

Additional observations from a re-analysis of the deposited data

Results flagged for a closer look

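Of 84 genes and list sums checked over the 4 arrays with Dixon's ratio, 2 had 1 array far from the other 3, and chance gives about 1 in 20. Ppp1cc read 19400 in replicate 4, below the other arrays. Psma8 read 8665 in replicate 4, also below the others.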

How the results depend on the processing

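The 232 genes of the top 300 that held in both pairs became 73 of the top 100 and 852 of the top 1000. They ranged from 217 to 245 when 1 array was left out, and from 203 to 250 under the other settings. The 929 genes called between the pairs became 299 with no filter, 512 with the 60th percentile, 498 with quantile normalization, 2171 with median centring, 478 with no intensity trend and 1694 with all 8 arrays, and ran from 273 to 2394 when 1 array was left out. The 47 called among the top 300 became 1, 15, 169, 1 and 122 with no filter, quantile normalization, median centring, no trend and all 8 arrays, and 27 with the mean of all probe sets, and ran from 2 to 184 when 1 array was left out. The causes were not tested. Of 46 named genes called, 10 stayed called under every alternative that tested them and 36 lost the call under at least 1. The 46 include genes named for their difference or after their values were seen, so these counts are no test. Gsn, Tex15, Smc1b and Dcn kept the call. Lcn5, Lcn8, Gpx5, Rnase10 and Cyp2e1 also kept it, as did Gfra1, which was not tested with the 60th percentile filter. Those genes were chosen for their difference or passed the filter only through replicates 3 and 4, so their calls are not used. No named difference changed sign where it was called in the main setting or in the alternative. Quantile normalization gave 73.7% of calls as higher in replicates 3 and 4. No paired analysis was possible because the comparison lies between replicate numbers of 1 genotype. No detection calls were used, so no gene was marked as absent.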
